A study of Mus musculus with 6 samples.

Results

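Genes of the insulin signalling cascade were followed in inguinal white adipose tissue (IngWAT) of mice lacking *Hdac3* in adipocytes. The 9 genes were chosen by symbol out of 46517 genes counted in each sample, with earlier results of these data known. They are the receptor (*Insr*), its substrates (*Irs1*, *Irs2*), the catalytic and regulatory subunits of PI3 kinase (*Pik3ca*, *Pik3r1*), the kinases *Akt1* and *Akt2*, and the Akt substrates *Foxo1* and *Tbc1d4*. Both genotypes were C57Bl6 mice carrying floxed *Hdac3*, 5 to 9 months old, on chow and in standard housing. Knock out mice (H3atKO) also carried the Adipoq-cre transgene, and the floxed mice served as controls. Cre was driven by the promoter of adiponectin, an adipocyte gene, so that other cells of the fat pad kept *Hdac3*. Poly(A) RNA was sequenced from 3 samples per genotype, each a pool of RNA from 2 or 3 mice. The methods of the study describe male mice, and the sample labels give no sex.

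Insulin binds its receptor tyrosine kinase, which phosphorylates the IRS proteins. These recruit PI3 kinase, whose lipid product brings Akt to the membrane to be activated. In adipocytes Akt phosphorylates the RabGAP AS160 (encoded by *Tbc1d4*), which lets vesicles with the glucose transporter GLUT4 reach the surface, and it keeps FOXO1 out of the nucleus. Much of this regulation acts on phosphorylation, which RNA levels do not show.

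In H3atKO IngWAT, RNA for the receptor, the catalytic PI3 kinase subunit and AS160 was upregulated. *Insr* rose 2.22-fold, *Pik3ca* 2.09-fold and *Tbc1d4* 2.12-fold (limma voom, adjusted p from 0.0306 to 0.0491, n = 3 pools per genotype). Of all genes tested, 9.42% rose and 7.07% fell. *Irs2*, *Akt1* and *Akt2* were lower in every H3atKO sample than in every floxed sample. Their folds as fitted by limma voom were 20.4, 4.58 and 4.13, and they did not pass the same test (adjusted p from 0.0509 to 0.118). *Foxo1* was higher in every H3atKO sample and did not pass (adjusted p = 0.0650, limma voom). Such separation was common, as 28.6% of all genes were lower and 23.1% higher without overlap. The floxed samples of *Irs2* spanned 21.0-fold by themselves. *Irs1* and *Pik3r1* overlapped between the genotypes. When the samples' trend with the GC content of transcripts was removed, *Insr* was the one member still called (log2 fold change 0.86). *Tbc1d4* then stood at 1.29 and just missed the threshold, and *Pik3ca* and *Akt1* stood at 0.11 and 0.01. *Irs2* and *Akt2* stood at -2.72 and -0.70 and were not called.

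The libraries held 23865507 to 35200685 counts on genes, where 3 counts equal 0.0658 to 0.190 cpm (counts scaled to a common library total, here with TMM factors), a floor for counting error only. *Hdac3* had between 2709 and 3339 counts in floxed and between 204 and 666 in H3atKO samples (log2 fold change -1.83 ± 0.32 SE, adjusted p = 0.0214 by limma voom), in the direction of the labels. Adipocyte markers were abundant in every sample. They summed to 14490 to 35530 cpm in floxed and 15590 to 26830 cpm in H3atKO samples. Of the 8, 0 rose and 1 (*Cfd*) fell, where 9.42% and 7.07% of all genes did (limma voom). *Fabp4*, which had the most counts of the 8 in every sample, stood at 0.05 on the log2 scale and *Adipoq* at -0.24. The rest lay lower, from -3.99 (*Cfd*) to -1.22 (*Plin1*). Half-way through the list the value was -1.53 (median), while all genes tested had -0.09. The study's qPCR, in larger groups, found *Adipoq*, *Fabp4* and *Plin* higher in H3atKO IngWAT. Genes of the mitochondrial genome took 6.92% to 12.9% of counts in floxed and 26.9% to 35.3% in H3atKO samples. Over genes, the rank correlation of GC content with how far a sample departs from each gene's average ran from 0.0969 to 0.800 in floxed and from -0.711 to -0.433 in H3atKO samples, so that the trend and the genotype cannot be told apart. Fold changes of the members are therefore given also after a GC correction. In both genotypes this correlation fell from replicate 1 to replicate 3, so that fits with the replicate number as a block are not separate from the GC trend.

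Other cells of the fat pad differed between samples as well. Endothelial markers summed to 531 to 896 cpm in floxed and 389.6 to 521 cpm in H3atKO samples, and 2 of 5 (*Pecam1*, *Cdh5*) fell. *Kdr* and *Emcn* stood at 0.30 and 0.12 on the log2 scale and *Tie1* at -2.08, without a call. Brown adipocyte markers summed to 33.2 to 66.9 cpm in floxed and 115 to 413 cpm in H3atKO samples, and 1 of 5 (*Dio2*) rose. *Ucp1*, *Cidea* and *Ppargc1a* stood at 2.33, 1.70 and 1.39 and *Cox7a1* at -0.28, without a call. *Ucp1* had 3839 counts in H3atKO replicate 1 and 26 and 182 in replicates 2 and 3. Macrophage markers (371 to 2073 cpm in floxed, 335 to 585 cpm in H3atKO) and stromal progenitor markers (1857 to 8088 cpm in floxed, 1319 to 2135 cpm in H3atKO) were both highest in floxed replicate 3, and 1 of 6 fell in each list (*Csf1r*, *Pi16*). Skeletal muscle markers ranged from 577 to 2392 cpm in floxed and from 2.47 to 3157 cpm in H3atKO samples, and B and T cell markers from 45.5 to 325 cpm and from 73.3 to 544 cpm, with 0 called in either. Epithelial markers stayed under 10 cpm in sum in all 6 samples, and *Krt8* and *Krt14* were too low to be tested. These marker calls are by limma voom without the GC correction, where 9.42% of all genes rose and 7.07% fell. In bulk tissue, fewer cells of a type and less RNA per cell cannot be told apart, and the part of these cell types in the results was not tested.

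The receptor gene *Insr* (ENSMUSG00000005534, chr8:3122061-3279617 on the minus strand, GRCm38) encodes the tyrosine kinase that starts the cascade. Its normalised expression was 188, 243 and 259.8 cpm in floxed replicates 1 to 3 and 422, 562 and 545 cpm in H3atKO replicates 1 to 3. The lowest H3atKO sample lay well above the highest floxed sample. The mean rose from 230.1 ± 37.7 to 509.6 ± 76.7 cpm (SD, n = 3), which is 1.15 ± 0.25 on the log2 scale (SE, adjusted p = 0.0306 by limma voom). Between samples with the same replicate number the log2 difference was 1.17, 1.21 and 1.07. *Insr* was still called after the GC correction (0.86, adjusted p = 0.0357 by limma voom), and with the replicate number as a block as well its adjusted p was 0.0222 (limma voom).

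IRS1 and IRS2 are the docking proteins that carry the signal from the receptor to PI3 kinase. *Irs1* (ENSMUSG00000055980, chr1:82233101-82291416, minus strand) had 55.0, 78.1 and 101 cpm in floxed and 85.5, 136 and 117 cpm in H3atKO samples. The floxed maximum exceeded the H3atKO minimum. The log2 fold change of 0.55 had a 95% interval from -0.17 to 1.26 (adjusted p = 0.199 by limma voom). With the GC correction it stood at 0.84 (adjusted p = 0.141). *Irs1* passed with the replicate block and GC correction together (0.84, adjusted p = 0.0296 by limma voom), not with either alone.

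*Irs2* (ENSMUSG00000038894, chr8:10984681-11008458, minus strand) was counted 2001, 579 and 86 times in floxed replicates 1 to 3 and 34, 6 and 4 times in H3atKO replicates 1 to 3. This gave 43.9, 13.9 and 2.09 cpm in floxed and 1.40, 0.306 and 0.253 cpm in H3atKO samples. The genotypes did not overlap, but the floxed samples spread over a range of 21.0-fold, and floxed replicate 3 lay nearer to H3atKO replicate 1 than to the other floxed samples. Its log2 fold change was -4.35 ± 1.89 (SE), with a 95% interval from -8.76 to 0.06 (adjusted p = 0.118 by limma voom). With the replicate number as a block, where the log2 difference was -4.91, -5.24 and -2.77 within the 3 numbers, *Irs2* passed (adjusted p = 0.00288 by limma voom), and it also passed with block and GC correction (-3.00, adjusted p = 0.0140). With the GC correction alone it stood at -2.72 (adjusted p = 0.211, limma voom). edgeR's quasi-likelihood test called it (-4.89, adjusted p = 0.0290). A gene annotated across this locus, 9530052E02Rik, never had more than 32 counts.

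The level of *Irs1* over that of *Irs2*, each per kilobase of exon, was 0.866, 3.88 and 33.4 in floxed and 42.2, 308.2 and 319 in H3atKO samples. Floxed replicate 1 was the one sample in which *Irs2* was the higher. The ratio was higher in every H3atKO sample than in every floxed sample, and floxed replicate 3 came close to H3atKO replicate 1. It is a description and was not tested.

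The sequences before the starts of both genes are shown because FOXO factors, themselves held back by Akt, are known to act on *Irs2*, and *Irs1* serves for comparison. In the RefSeq promoter table used here, on GRCm38.p6, 8 of the 9 members were matched. Capitals mark TGTTT on either strand, the core of the forkhead motif TGTTTAC. The windows are the 250 bases before the start, chr1:82291440-82291689 for *Irs1* and chr8:11008930-11009179 for *Irs2*, both on the minus strand.
Irs1: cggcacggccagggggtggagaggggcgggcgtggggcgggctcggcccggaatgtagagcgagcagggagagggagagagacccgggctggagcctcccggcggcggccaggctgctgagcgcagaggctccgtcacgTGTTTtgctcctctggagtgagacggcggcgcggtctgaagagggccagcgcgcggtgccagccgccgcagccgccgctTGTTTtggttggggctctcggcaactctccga
Irs2: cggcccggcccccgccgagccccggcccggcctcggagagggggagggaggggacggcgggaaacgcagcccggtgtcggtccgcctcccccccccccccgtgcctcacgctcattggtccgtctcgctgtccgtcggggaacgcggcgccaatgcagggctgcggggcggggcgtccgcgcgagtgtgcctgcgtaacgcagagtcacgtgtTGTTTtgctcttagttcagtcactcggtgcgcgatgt
The *Irs1* window held 2 cores and the *Irs2* window 1. Neither held the full TGTTTAC, found on either strand in 3.2% of 32851 such windows, while the core was in 46.4%. Both were rich in G and C (72.4% and 72.8%) with 28 and 34 CpG. The matches are a description of letters and were not related to the expression values.

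**Figure D1:**
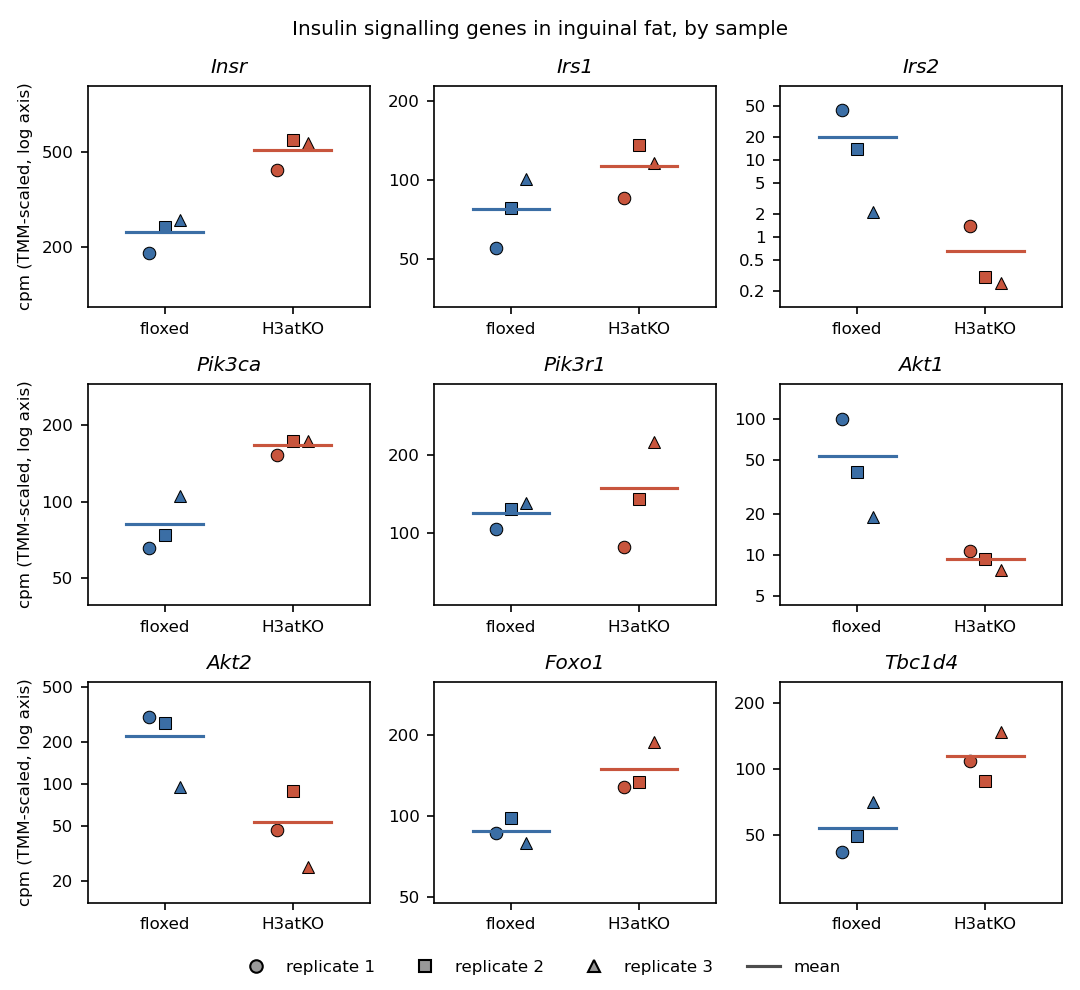
Normalised expression of the 9 insulin signalling genes in each pooled sample, as TMM-scaled cpm on log axes that differ between panels. Points are samples, the shape gives the replicate number and the line the mean of 3. *Insr*, *Pik3ca*, *Foxo1* and *Tbc1d4* lie higher in all H3atKO samples, *Irs2*, *Akt1* and *Akt2* lie lower, and the floxed samples of *Irs2* span a range of 21.0-fold.

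PI3 kinase works as a catalytic subunit, p110-alpha from *Pik3ca*, held by a regulatory subunit, p85-alpha from *Pik3r1*. *Pik3ca* (ENSMUSG00000027665, chr3:32397671-32468486, plus strand) had 65.8, 73.6 and 105 cpm in floxed and 153, 173 and 174 cpm in H3atKO samples. All H3atKO samples were higher, and they were closer to each other than the floxed samples. *Pik3ca* rose by a log2 fold change of 1.06 ± 0.25 (SE, adjusted p = 0.0365 by limma voom). *Pik3ca* has the lowest GC content of the 9 (41.2%, the 10.5th percentile of the genes tested), and after the GC correction its log2 fold change was 0.11 (adjusted p = 0.717 by limma voom, and 0.677 with the block).

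*Pik3r1* (ENSMUSG00000041417, chr13:101680563-101768217, minus strand) had 103, 124 and 131 cpm in floxed and 88.7, 135 and 224 cpm in H3atKO samples. The H3atKO samples reached both below and above the floxed range. The log2 fold change of 0.22 had a 95% interval from -0.60 to 1.04 (adjusted p = 0.637 by limma voom), and it turned to -0.32 after the GC correction (adjusted p = 0.452) and to -0.11 without H3atKO replicate 3. Per kilobase, *Pik3r1* over *Pik3ca* was 1.42, 1.51 and 1.13 in floxed and 0.522, 0.703 and 1.16 in H3atKO samples. The regulatory subunit's RNA was thus below that of the catalytic subunit in H3atKO replicates 1 and 2 and not in replicate 3.

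AKT1 and AKT2 are closely related kinases, of which AKT2 is the one best known for insulin-stimulated glucose uptake. *Akt1* (ENSMUSG00000001729, chr12:112653821-112674884, minus strand) had 99.8, 40.5 and 19.1 cpm in floxed and 10.7, 9.38 and 7.78 cpm in H3atKO samples. Every H3atKO sample was lower, and they differed little, while the floxed samples ranged 5.22-fold. The log2 fold change was -2.20 ± 0.71 (SE, adjusted p = 0.0641 by limma voom), and *Akt1* passed with the replicate block (-2.35, adjusted p = 0.00552). It is the member richest in GC (59.7%, the 96.1th percentile), and after the GC correction the log2 fold change was 0.01 (adjusted p = 0.986), and -0.04 with the block (adjusted p = 0.913).

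*Akt2* (ENSMUSG00000004056, chr7:27591552-27640826, plus strand) had 300.4, 272 and 94.4 cpm in floxed and 46.6, 88.7 and 25.2 cpm in H3atKO samples. Again no sample overlapped, but floxed replicate 3 was close to H3atKO replicate 2. *Akt2* had a log2 fold change of -2.05 ± 0.58 (SE, adjusted p = 0.0509 by limma voom). It passed with the replicate block (-2.08, adjusted p = 0.00329) and by edgeR (-2.06, adjusted p = 0.0366). Corrected for GC, the log2 fold change was -0.70 (adjusted p = 0.251), and with the block as well the adjusted p was 0.0603 (limma voom).

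The level of *Akt2* per kilobase was 1.73, 3.86 and 2.84 times that of *Akt1* in floxed and 2.50, 5.43 and 1.86 times in H3atKO samples. *Akt2* was the more abundant in all 6 samples, and the ratio overlapped between the genotypes. The windows before the first RefSeq start of each gene are shown because both members were lower in every H3atKO sample (chr12:112674885-112675134, minus strand, for *Akt1* and chr7:27591302-27591551, plus strand, for *Akt2*, GRCm38.p6), with TGTTT on either strand in capitals.
Akt1: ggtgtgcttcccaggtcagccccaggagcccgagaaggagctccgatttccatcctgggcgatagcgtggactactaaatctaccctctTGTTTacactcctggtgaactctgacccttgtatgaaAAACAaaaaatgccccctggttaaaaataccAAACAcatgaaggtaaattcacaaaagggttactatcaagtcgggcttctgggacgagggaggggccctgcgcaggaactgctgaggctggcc
Akt2: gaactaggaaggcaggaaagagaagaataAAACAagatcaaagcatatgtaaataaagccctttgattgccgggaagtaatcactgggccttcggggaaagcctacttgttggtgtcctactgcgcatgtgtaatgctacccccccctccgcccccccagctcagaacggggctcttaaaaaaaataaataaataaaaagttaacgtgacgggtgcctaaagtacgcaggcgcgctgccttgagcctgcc
The *Akt1* window held 3 cores, 1 of them within TGTTTAC, and the *Akt2* window 1. GC content was 52.0% and 48.8%. The table holds further windows for both genes, which differ from these. The second *Akt1* window had 78.4% GC and 0 cores, and the other 3 *Akt2* windows held 2, 0 and 7.

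**Figure D2:**
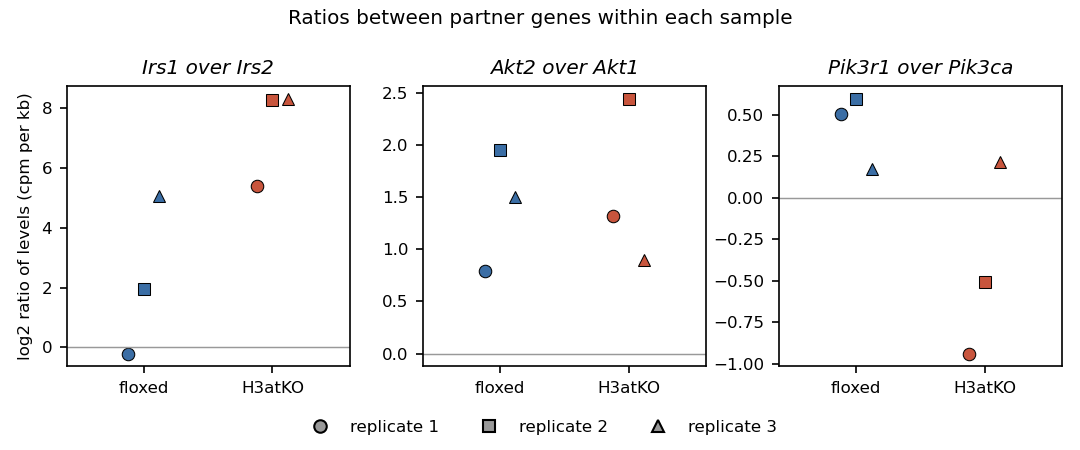
The log2 ratio of levels (cpm per kilobase of exon) between partner genes within each sample. Each panel has its own axis, and points are single pools. *Irs1* over *Irs2* is higher in every H3atKO sample than in any floxed sample, whereas *Akt2* over *Akt1* and *Pik3r1* over *Pik3ca* overlap between the genotypes.

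Downstream of Akt, *Foxo1* encodes a transcription factor that insulin inactivates. *Foxo1* (ENSMUSG00000044167, chr3:52268336-52353221, plus strand) had 86.1, 98.0 and 79.4 cpm in floxed and 128, 133 and 189 cpm in H3atKO samples. All H3atKO samples were higher than all floxed samples. The log2 fold change was 0.75 ± 0.25 (SE, adjusted p = 0.0650 by limma voom), 0.71 after the GC correction (adjusted p = 0.0767), and the gene passed with the replicate block (adjusted p = 0.0308) but not with block and GC correction (adjusted p = 0.0666).

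*Tbc1d4* (ENSMUSG00000033083, chr14:101442360-101609191, minus strand) had 41.9, 49.5 and 70.9 cpm in floxed and 108, 88.1 and 146 cpm in H3atKO samples. No sample overlapped. *Tbc1d4* rose by a log2 fold change of 1.08 ± 0.30 (SE), just inside the threshold (adjusted p = 0.0491 by limma voom). It was 1.29 after the GC correction, just outside it (adjusted p = 0.0517), and passed with block and GC correction (adjusted p = 0.0121). *Tbc1d4* has a GC content of 49.95%.

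Of the 9 members, 3 rose and 0 fell, where 9.42% of the 14967 genes tested rose and 7.07% fell (limma voom). At an unadjusted p under 0.05, 4 were higher and 2 lower, where 20.4% and 23.4% of all genes were. The members' median log2 fold change was 0.55, against -0.09 over all genes tested. Expression did not overlap between the genotypes for 4 members that were higher and 3 that were lower, where 23.1% of all genes were higher and 28.6% lower without overlap. edgeR called 3 higher and 3 lower (12.8% and 18.4% of all genes), and DESeq2 called 4 higher and 3 lower (19.6% and 23.2%). With the replicate block, 4 were higher (24.8%) and 3 lower (28.7%).

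After the GC correction 1 member rose and 0 fell (5.55% and 3.06% of all genes), and with block and GC correction 3 rose, *Insr*, *Irs1* and *Tbc1d4*, and 1 fell, *Irs2* (13.1% and 9.71%). In the corrected values *Insr*, *Foxo1* and *Tbc1d4* (3 members, against 20.0% of all genes) were higher and *Irs2* (1 member, against 19.0%) lower without overlap. Scaling decided several of these calls. When libraries were scaled by their size only, without TMM, the median of all genes moved to -0.94, *Insr*, *Pik3ca* and *Tbc1d4* stood at 0.30, 0.21 and 0.23 and were not called, *Irs1*, *Pik3r1* and *Foxo1* turned to -0.30, -0.63 and -0.10, and *Irs2*, *Akt1* and *Akt2* were called lower, so that 0 members were higher and 3 lower (2.04% and 37.9% of all genes). Relative to that median, *Insr*, *Pik3ca* and *Tbc1d4* were still higher, and so were *Irs1*, *Pik3r1* and *Foxo1*. Without floxed replicate 3 the test called *Insr*, *Pik3ca* and *Tbc1d4* higher (adjusted p from 0.00828 to 0.0132) and *Irs2*, *Akt1* and *Akt2* lower (adjusted p from 0.00767 to 0.00875, limma voom), 3 and 3 members where 18.5% and 25.9% of all genes were called. Without any other single sample it called 0 of the 9, when of all genes it called 1 to 395 higher and 0 to 139 lower. Across the 6 fits without 1 sample the log2 fold change stayed between 1.01 and 1.27 for *Insr*, 0.92 and 1.26 for *Pik3ca*, and 0.89 and 1.3 for *Tbc1d4*.

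**Figure D3:**
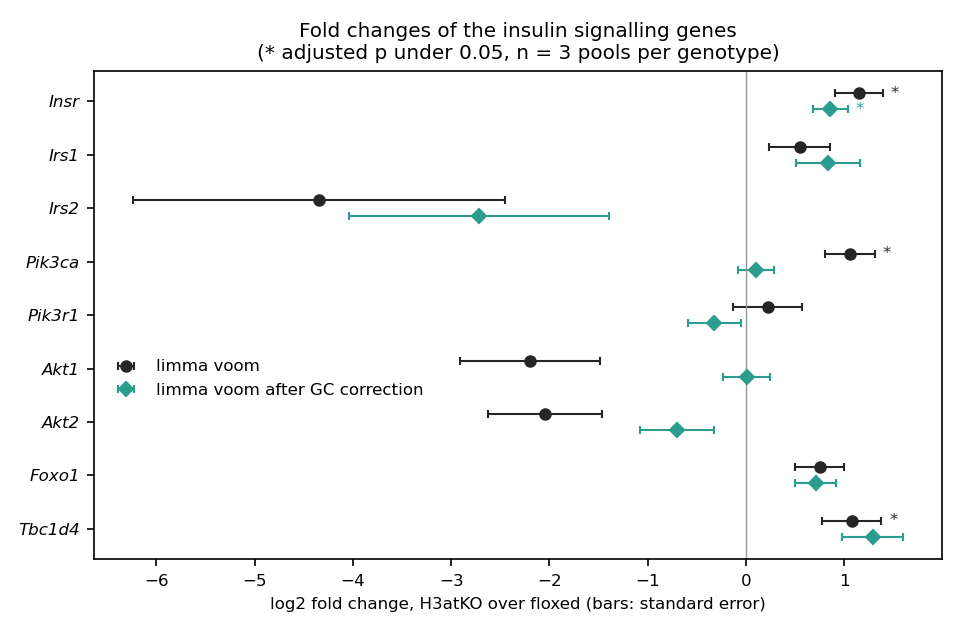
Log2 fold change of each member, H3atKO over floxed, by limma voom (circles) and by limma voom after the GC correction (diamonds), with bars of 1 standard error and n = 3 pools per genotype. Asterisks mark an adjusted p under 0.05. *Insr* moves from 1.15 to 0.86 and keeps its call, *Pik3ca* and *Akt1* move to 0.11 and 0.01, and *Irs2* has by far the widest bars.

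The members that were lower in H3atKO samples were also the richest in GC. *Akt1*, *Irs2* and *Akt2* had 59.7%, 56.6% and 55.2%. The other 6 lay between 41.2% and 50.3%, around the median of 49.2% over all genes tested. Spearman's rho between GC content and log2 fold change was -0.70 over the 9 members and -0.71 over 14922 genes, a description, since genes measured in the same libraries are not independent. Within floxed samples the same 3 genes ran in the order of the samples' GC trend, and replicate 1 exceeded replicate 3 by 4.35 (*Irs2*), 2.38 (*Akt1*) and 1.67 (*Akt2*) on the log2 scale. Among H3atKO samples the corresponding differences were 2.21, 0.46 and 0.89, and *Akt2* did not follow the order of the trend, being highest in replicate 2. The part of the GC trend in the differences cannot be told apart from that of the genotype.

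**Figure D4:**
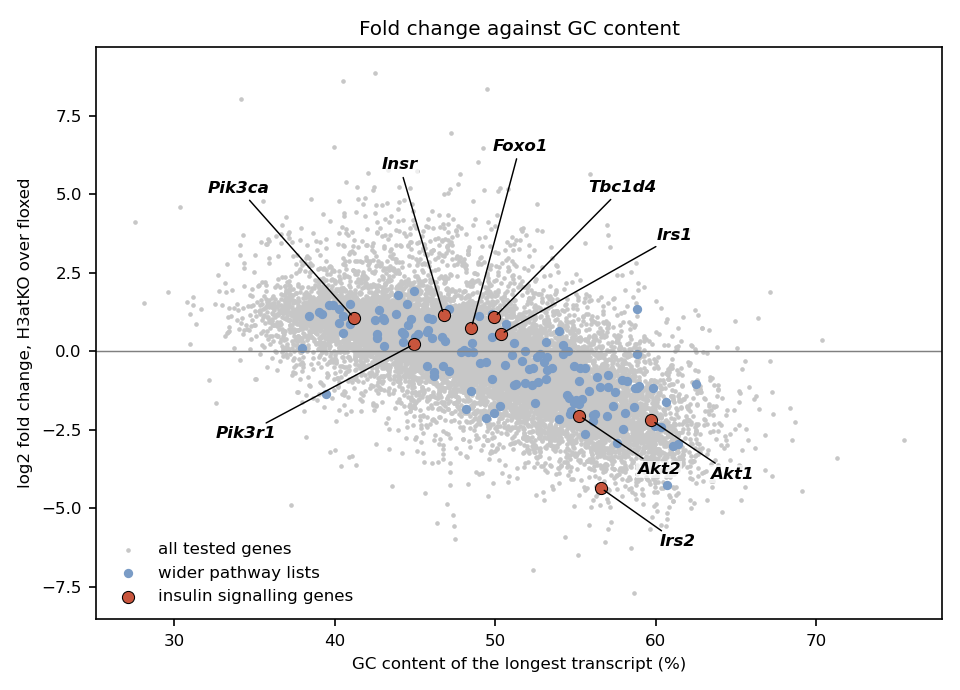
Log2 fold change, H3atKO over floxed, against the GC content of the longest transcript (%). Grey points are all genes tested, blue points the wider pathway lists and red points the 9 members. The cloud slopes downwards, with *Pik3ca* (41.2% GC) near its upper left and *Akt1* (59.7% GC) near its lower right, while *Irs2* lies below and *Tbc1d4* above the middle of the cloud at their GC content.

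Compared per kilobase of exon, the order of the levels differed between genotypes. In floxed samples *Akt2* had the highest mean level (31.2 ± 15.7 cpm per kilobase, SD), followed by *Insr* (16.7 ± 2.74), *Akt1* (13.0 ± 10.2) and *Pik3r1* (11.8 ± 1.42). *Foxo1*, *Pik3ca*, *Irs1* and *Tbc1d4* followed at 10.1 to 7.05 cpm per kilobase, and *Irs2* was last at 3.16 ± 3.41. Each gene overlapped the next in that order. In H3atKO samples *Insr* (37.1 ± 5.58 cpm per kilobase) stood above *Pik3ca* (18.3 ± 1.28) without overlap. *Foxo1*, *Tbc1d4*, *Pik3r1* and *Irs1* formed an overlapping run from 17.3 to 12.3 cpm per kilobase. *Akt2* (7.50 ± 4.53) overlapped *Irs1* and lay above *Akt1* (2.27 ± 0.36), which in turn lay above *Irs2* (0.103 ± 0.102), with no overlap between neighbours among these 3. The ranks hold for union exon lengths. With the longest transcript instead, *Insr* stood at 24.6 in floxed and 54.5 cpm per kilobase in H3atKO samples.

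For each member, the gene outside the lists with the most similar profile over the 6 samples was sought among 11506 genes, by the root mean square difference of centred log2 cpm. It was *Ubxn2a* for *Insr* (0.061), *Strap* for *Pik3ca* (0.044), *Arid4b* for *Tbc1d4* (0.024), *Wdr20* for *Foxo1* (0.085) and *Tmtc1* for *Irs1* (0.066). For *Pik3r1* it was *Pcdhb22* (0.079), for *Akt1* *Agap3* (0.048) and for *Akt2* *Lamc3* (0.099). *Irs2* had no close match, its nearest being *Rpl8*, a ribosomal protein gene, at 0.38. Among the members themselves, *Insr* and *Pik3ca* were nearest to each other (0.147), as were *Akt1* and *Akt2* (0.575).

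The wider pathway was described with 135 further genes in 11 lists, of which 131 were tested and 4 (*Igfbp1*, *Igfbp2*, *Irs4*, *Foxo6*) were too low. Of those tested, 16 rose and 13 fell (limma voom), with a median log2 fold change of -0.45 against -0.09 over all genes tested. These are 12.2% and 9.92%, where 9.42% and 7.07% of all genes rose and fell, the background for each list below. The 16 that rose had a GC content of 39.0% to 49.8% and the 13 that fell one of 48.5% to 61.4%. After the GC correction 12 rose and 1 fell (9.16% and 0.763%, against 5.55% and 3.06% of all genes), and the median turned to 0.11. *Trib2*, *Rab10*, *Rhoq*, *Pde3b* and *Dusp6* (higher) and *Grb10* (lower) were called both with and without it. With the replicate block 33 rose and 48 fell (25.2% and 36.6%, against 24.8% and 28.7%), and with library sizes alone 1 rose and 65 fell (0.763% and 49.6%, against 2.04% and 37.9%).

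Among ligands and other receptors 0 of 10 rose and 3 fell, all of them binding proteins. *Igfbp6*, whose product binds insulin-like growth factors, fell from 21.4 ± 11.3 to 1.06 ± 0.46 cpm (log2 fold change -4.24, adjusted p = 0.0192), and stood at -1.89 after the GC correction (adjusted p = 0.117). *Igfbp4*, another binding protein, fell by 1.55 on the log2 scale (adjusted p = 0.0266), and stood at -0.23 after the correction (adjusted p = 0.726). *Igfbp7* fell by 1.17 (adjusted p = 0.0241), but stood at 0.92 after the correction (adjusted p = 0.319) and was called higher with block and GC correction (0.93, adjusted p = 0.0419). *Igf1*, named here after its values were seen, had 218 ± 62.0 cpm in floxed and 255.5 ± 126 cpm in H3atKO samples (adjusted p = 0.868, limma voom).

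Among the other substrates and adaptors 2 of 14 rose and 0 fell. These were *Sos1*, the exchange factor that activates Ras (log2 fold change 1.51, adjusted p = 0.0202), and the adaptor *Crk* (1.19, adjusted p = 0.0300). Neither was called after the GC correction, where they stood at 0.54 (adjusted p = 0.0876) and 0.51 (adjusted p = 0.0781, limma voom). *Irs3*, a substrate gene that rodents express in fat, had 41.7, 27.7 and 6.83 cpm in floxed and 4.28, 13.5 and 3.48 cpm in H3atKO samples, which overlapped, and was named after its values were seen (-1.77, adjusted p = 0.160). *Irs4* had 0 counts in every sample, which allows a level of up to 0.0658 to 0.190 cpm depending on the sample.

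Among the other PI3 kinase subunits 1 of 12 rose and 3 fell. *Pik3r2*, the second p85 gene, fell from 11.3 ± 8.05 to 1.21 ± 0.35 cpm (log2 fold change -2.95, adjusted p = 0.0470). *Pik3r6*, a regulatory subunit of the gamma isoform, fell by 2.01 (adjusted p = 0.0400), and *Pik3c2a*, a class II enzyme, rose by 1.26 (adjusted p = 0.0386). *Pik3r2* stood at -0.48, *Pik3r6* at -0.49 and *Pik3c2a* at 0.17 after the GC correction, with adjusted p of 0.314 or more (limma voom). Of 7 genes for PDK1 and the mTORC2 complex, which phosphorylate Akt, 0 were called. At an unadjusted p under 0.05, 2 of them were higher and 2 lower (20.4% and 23.4% of all genes). After the GC correction 1 of the 7, *Mtor*, rose, where 5.55% of all genes did (limma voom). *Pdpk1*, the PDK1 gene, had the highest level among them, 64.6 ± 9.09 cpm in floxed and 98.2 ± 2.92 cpm in H3atKO samples (adjusted p = 0.0773, limma voom).

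Among inhibitors of the pathway 3 of 19 rose and 2 fell. *Grb10*, an adaptor that binds and restrains the receptor, had 159, 127 and 144 cpm in floxed and 56.4, 71.2 and 51.0 cpm in H3atKO samples. All H3atKO samples lay far below the floxed samples. Its log2 fold change was -1.27 ± 0.24 (SE, adjusted p = 0.0243) and -1.31 after the GC correction (adjusted p = 0.0192). *Socs6* rose by 1.48 and the tyrosine phosphatase gene *Ptpn2* by 1.47 (adjusted p = 0.0363 and 0.0329), and after the GC correction they stood at 0.44 and 0.42. *Trib2*, a pseudokinase gene named after its values were seen, rose by 1.19 (adjusted p = 0.0386) and by 1.37 after it (adjusted p = 0.0330, limma voom).

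In the mTORC1 branch 3 of 14 rose and 2 fell. The S6 kinase genes moved apart, *Rps6kb1* rising by 1.20 (adjusted p = 0.0327) and *Rps6kb2* standing at -2.63 on the log2 scale (adjusted p = 0.0476). *Tsc2*, a brake on mTORC1, fell by 1.90 (adjusted p = 0.0488). After the GC correction these 3 stood at 0.12, -1.19 and -0.68 and were not called. *Mtor*, which is listed with the kinases of Akt and not in this branch, was named after its values were seen. It was called only after the correction, at 1.02 (adjusted p = 0.0291, limma voom), against -0.09 before it. In the glycogen branch 0 of 8 rose and 1 fell, the glycogen phosphorylase gene *Pygb* (-1.40, adjusted p = 0.0345, and -0.24 after the GC correction, limma voom).

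Genes of GLUT4 traffic, the step that *Tbc1d4* restrains, held 3 of 16 that rose and 1 that fell. *Rab10*, the Rab on which AS160 acts in adipocytes, had 130.2, 159 and 205 cpm in floxed and 366.5, 534 and 506 cpm in H3atKO samples. It was higher in every H3atKO sample, as *Tbc1d4* was (log2 fold change 1.52 ± 0.27 SE, adjusted p = 0.0227, and 0.92 after the GC correction, adjusted p = 0.0335). *Lnpep*, whose product travels with GLUT4, rose by 1.36 (adjusted p = 0.0394), and *Stx4a*, the syntaxin of the target membrane, fell by 2.14 (adjusted p = 0.0386). Neither was called after the GC correction (0.36 and -1.08). *Rhoq*, which encodes the GTPase TC10 and was named after its values were seen, rose by 1.35 (adjusted p = 0.0311) and by 1.11 after the correction (adjusted p = 0.0416). *Slc2a4*, the GLUT4 gene itself, had 68.2 ± 29.9 cpm in floxed and 23.8 ± 10.1 cpm in H3atKO samples and did not pass (-1.49, adjusted p = 0.0620, limma voom), and it was likewise named afterwards. It passed with the replicate block (adjusted p = 0.0131), by edgeR (adjusted p = 0.0399) and by DESeq2 (adjusted p = 0.0119), and stood at -0.30 after the GC correction (adjusted p = 0.557). The study's qPCR, in larger groups, went the other way, with higher *Glut4* mRNA in H3atKO IngWAT.

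Among the other FoxO factors and their targets 2 of 15 rose and 0 fell. *Pdk4*, which turns pyruvate away from oxidation, rose from 766 ± 178 to 2993 ± 1087 cpm (log2 fold change 1.91, adjusted p = 0.0245), and stood at 1.36 after the GC correction (adjusted p = 0.0969). *Ccng2*, a cyclin gene, rose by 1.33 (adjusted p = 0.0324), and stood at 0.52 after the correction (adjusted p = 0.204). Of the *Pde3* pair 1 of 2 rose. *Pde3b*, the phosphodiesterase through which insulin restrains lipolysis in fat, rose from 614 ± 102 to 2144 ± 439 cpm (log2 fold change 1.80, adjusted p = 0.0151), and by 1.13 after the correction (adjusted p = 0.0245). In the Ras and MAPK branch 1 of 14 rose and 1 fell. *Dusp6*, a phosphatase of ERK, rose by 1.13 (adjusted p = 0.0341, and 1.17 after the correction, adjusted p = 0.0309), and *Mapk3*, which encodes ERK1, fell by 2.91 (adjusted p = 0.0368, and -1.06 after the correction, adjusted p = 0.0734, limma voom).

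**Figure D5:**
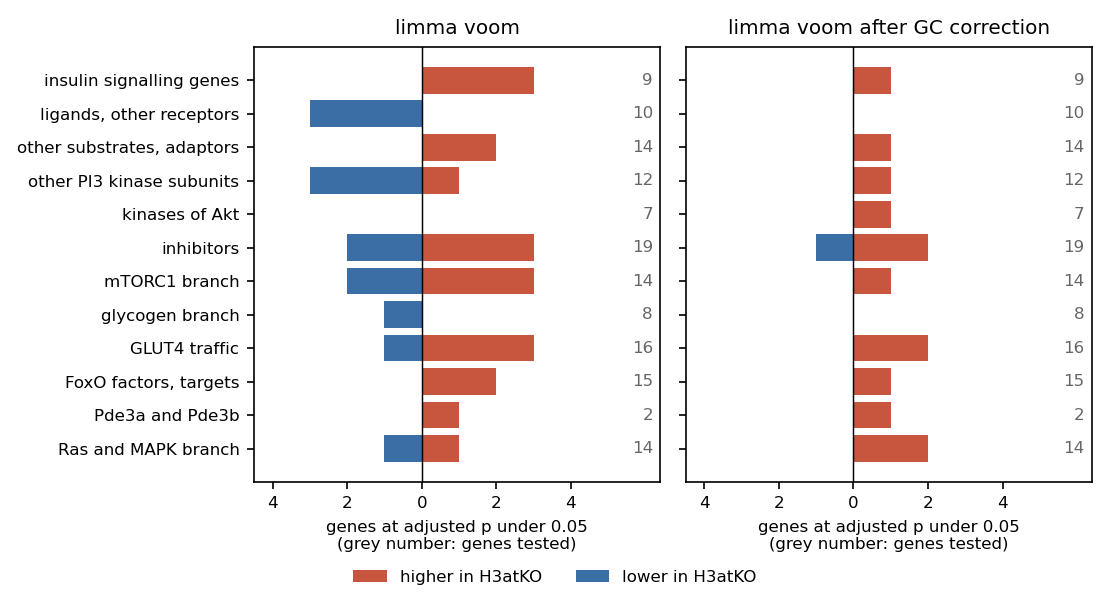
Number of genes called at an adjusted p under 0.05 in each list, rightwards for higher and leftwards for lower in H3atKO, by limma voom (left) and after the GC correction (right), with the number of genes tested in grey. In the left panel 3 of the 9 members rose, and in the right panel 1 did. Nearly all leftward calls go after the correction, and *Grb10* among the inhibitors is the one that stays. Most rightward calls go too. Of the 16 wider pathway genes called higher in the left panel, 5 are among the 12 of the right panel, and the rest of those 12 are newly called.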

How the data were processed

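RNA-seq of IngWAT was available for 3 floxed and 3 H3atKO samples. The authors made stranded poly(A) libraries, trimmed reads with cutadapt 1.3, aligned them to GRCm38 with STAR 2.4.2a and deposited HTSeq 0.6.1 counts per Ensembl gene, not normalized. Reads given to no gene made up 37.3% to 44.0% of each floxed file and 50.3% to 51.7% of each H3atKO file, and were left out. Most had several alignments, 28.3% to 35.2% of each floxed file and 43.8% to 45.5% of each H3atKO file. The genotypes did not overlap in either share, and the part of this in the results was not tested. PCR copies were not marked. Symbols, positions, exon lengths and GC content came from GENCODE M21 (46005 of 46517 identifiers matched), and promoters from RefSeq.

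Following the study's methods, the 14967 genes that reached 1 cpm in any sample were scaled by TMM (edgeR 4.0.16) and compared by limma 3.58.1 voom in R 4.3.3, with a call where the p adjusted by Benjamini-Hochberg over these genes was under 0.05. P-values measure the spread between pools. Alternatives were edgeR's quasi-likelihood test, DESeq2 1.42.0, quality weights, library sizes alone, RLE factors, other filters and thresholds, a GC correction (robust loess of each sample's deviations on GC content, span 0.3), the replicate block, no mitochondrial genes, and each sample left out. The fits were tested on simulated data that held no GC trend and no deviation shared by same-numbered samples. How the GC correction and the block handle these was therefore not tested.

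Same-numbered samples deviated together (correlations 0.510, 0.389 and 0.264). In both genotypes the rank correlation with GC content fell from replicate 1 to 3. It was 0.800, 0.623 and 0.0969 in floxed and -0.433, -0.504 and -0.711 in H3atKO samples, so the block is not separate from the GC trend. The replicate number entered as a block in alternatives only, and the main fit did not use it. The labels do not say what the number marks. The members, lists and tests were chosen with earlier results of these data known. Named were all members, *Hdac3* and, per list, up to 3 called genes without overlap and with the largest change, or else the most abundant gene, besides the most similar gene to each member. Others are said to be named afterwards, apart from markers. Levels were divided by union exon length. A few genes of the wider pathway are not reported here.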

Additional observations from a re-analysis of the deposited data

How the results depend on the processing

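Counts below give genes higher and then lower in H3atKO. With limma voom 1410 and 1058 of all genes, 3 and 0 members and 16 and 13 wider pathway genes were called. The study itself reported more down-regulated than upregulated transcripts, with a cutoff that its methods do not state. edgeR called 1916 and 2749 of all genes, 3 and 3 members and 20 and 27 wider genes, and DESeq2 2935 and 3465, 4 and 3, and 25 and 36. Quality weights gave 4003 and 4440, 4 and 3, and 34 and 48. Library sizes alone, the setting that most changed the split of directions, gave 306 and 5667, 0 and 3, and 1 and 65. RLE factors gave 1622 and 1095, 3 and 0, and 20 and 12. No filter, with 25279 genes tested, gave 1092 and 1327 (4.32% and 5.25%), 2 and 0, and 13 and 10. With at least 10 counts in every sample, 12466 genes were tested and *Irs2* was left out. That filter gave 1575 and 1864 (12.6% and 15%), 3 and 1, and 19 and 27. The GC correction gave 830 and 458, 1 and 0, and 12 and 1. The replicate block gave 3717 and 4290, 4 and 3, and 33 and 48, and the block with the GC correction 1955 and 1453, 3 and 1, and 23 and 13. Without the mitochondrial genes the counts were 1366 and 1062, 3 and 0, and 16 and 13. At an adjusted p under 0.1 they were 2804 and 3182, 4 and 2, and 28 and 33, and under 0.01 they were 65 and 17, 0 and 0, and 0 and 0. Leaving out 1 sample gave 1 to 2729 genes higher and 0 to 3828 lower, 0 to 3 members each way, and 0 to 25 and 0 to 42 wider genes, the highest each time without floxed replicate 3. The block changed the call of *Irs2*, *Akt1*, *Akt2* and *Foxo1* and of no other member.

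Turned in sign were *Irs1* (-0.30), *Pik3r1* (-0.63) and *Foxo1* (-0.10) with library sizes alone, *Pik3r1* with the GC correction (-0.32), with block and GC correction (-0.32), and when samples were left out in turn, between -0.11 (without H3atKO replicate 3) and 0.53, and *Akt1* with the GC correction (0.0076). With the longest transcript as length, levels per kilobase went up in both genotypes alike, in floxed and H3atKO to 24.6 and 54.5 for *Insr*, 16.8 and 21.0 for *Pik3r1*, 19.8 and 3.45 for *Akt1*, and 48.9 and 11.8 for *Akt2*. The causes were not tested. In H3atKO replicates 2 and 3 the depth left 6 and 4 counts for *Irs2*.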
